A study of Mus musculus with 12 samples.

Results

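The genes described here are 10 targets of Wnt/beta-catenin signalling and genes of pericentral hepatocytes, the liver cells nearest the central vein: Glul, Lect2, Rhbg, Tbx3, Axin2, Nkd1, Rnf43, Znrf3, Lgr5 and Sp5. They were taken by name from what is known of the pathway, but with earlier results of these data already known. All 10 were found among the 46983 genes of the count tables. Of these, 8 had enough reads to be tested, among 15664 tested genes, and Lgr5 and Sp5 did not. The study sequenced RNA of primary mouse hepatocytes, with 12 libraries in 4 groups of 3. The AEG-1-WT groups came from wild-type mice, and the AEG-1-L24K/L25H groups from littermates whose AEG-1 protein, encoded by Mtdh, carries the changes L24K and L25H, made with CRISPR/Cas9 in the C57BL/6/J strain. Within each genotype, 1 group was untreated and 1 was given CP775146 for 24 h at 2.5 µM, where the micro sign is read from a symbol-font letter in the label. CP775146 is an agonist of PPAR-alpha, the nuclear receptor that switches on fatty acid oxidation genes. The labels name no vehicle for the untreated cells, give no age at isolation, and leave unsaid whether replicate libraries stem from different animals or cultures. The p-values may therefore measure technical spread only, and effects of the mice or of the cell preparation cannot be told apart from genotype. Nor do the labels give a time for the untreated cells. Effects of a vehicle or of time in culture therefore cannot be told apart from those of CP775146.

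In the canonical Wnt pathway, a secreted Wnt protein binds Frizzled and LRP receptors, which halts the destruction complex that degrades beta-catenin, and beta-catenin then joins TCF/LEF factors on DNA and switches target genes on. In the liver, endothelial cells of the central vein secrete Wnt ligands and R-spondin, so the hepatocytes around the vein carry a Wnt-dependent programme that includes glutamine synthesis, while periportal hepatocytes carry urea cycle and gluconeogenesis genes. Several targets feed back on the pathway: Axin2 rebuilds the destruction complex, Nkd1 binds Dishevelled, and the ligases Rnf43 and Znrf3 remove Frizzled receptors unless R-spondin and an Lgr receptor hold them back.

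Total counts ran from 26956032 to 34885451 per library, and the coefficient of biological variation was 5.09% in untreated and 5.32% in treated wild type against 2.57% and 2.61% in the knock-in. Levels are CPM, counts divided by library size, on TMM-scaled library sizes, given per library or as mean ± SD (n = 3), and changes are log2 ± SE. A count of 3 equals 0.0844 to 0.113 CPM, which covers counting error only. The edgeR adjusted p is from the quasi-likelihood test with Benjamini-Hochberg adjustment over all 15664 genes, and a gene is said to rise or fall where it is below 0.05. Summed CPM of 8 hepatocyte markers, mostly Alb, ran from 118000 to 121000 in untreated and from 121000 to 128000 in treated wild type, and from 85200 to 89800 and from 79500 to 81900 in the knock-in. In the same order, summed CPM of 10 endothelial markers ran from 145 to 163, 101 to 111, 66.4 to 73.1 and 43.7 to 49.5. That of 8 macrophage markers ran from 213 to 253, 185 to 190, 153 to 162 and 107 to 122, and that of 8 stellate cell markers from 187 to 220, 160 to 197, 108 to 122 and 67.5 to 78. Summed CPM of 7 cholangiocyte markers, of which 5 were tested, ran the other way, from 15.1 to 18, 32.8 to 33.8, 40.8 to 43.4 and 48.3 to 52.5. Sox9 alone held means of 6.11, 16.2, 9.17 and 18.1 CPM of that sum. Flt1 and Stab2 made up most of the endothelial sum, Cd68 of the macrophage sum and Reln of the stellate sum, and none of the markers was at 0 in every library. Of the 8 hepatocyte markers, 1, Apob, was higher and 4 were lower in the untreated knock-in (median -0.11 log2, against 18.4% and 18.6% of all genes). Hnf4a was at -0.01 ± 0.03 log2 there. With treatment 1, Apob, was higher and 6 were lower (median -0.35 log2, against 20.5% and 22%). Between genotypes the other macrophage markers did not follow Cd68. Of 8 tested, 2 were higher and 1, Cd68, lower in the untreated knock-in (median 0.26 log2, against 18.4% and 18.6% of all genes). With treatment 4 were higher and 1, Cd68, lower (median 0.63 log2, against 20.5% and 22%). Of the endothelial markers, Thbd was higher in the untreated knock-in (1.88 ± 0.14 log2) and 3 were lower. The part of these cells in the results was not tested, and in such bulk samples fewer cells of a type and less RNA per cell cannot be told apart.

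Promoter windows of 300 bases, from 250 before to 50 after the start site, were at hand in RefSeq (GRCm38.p6) for 6 of the 10 genes. They were searched on both strands for the TCF/LEF core, CTTTGA or CTTTGT, and for AGGTCA, the core that nuclear receptors bind. PPAR-alpha with its partner binds this core repeated in the same direction after 1 base of any kind, which was searched too. Glul and Lect2 are shown because they are the members whose responses to CP775146 differed between genotypes by the test, Lect2 only at the threshold. Sp5 is shown because its window held 5 TCF/LEF cores, and matches on either strand are in capitals.
Glul, chr1:153899679-153899978, plus strand: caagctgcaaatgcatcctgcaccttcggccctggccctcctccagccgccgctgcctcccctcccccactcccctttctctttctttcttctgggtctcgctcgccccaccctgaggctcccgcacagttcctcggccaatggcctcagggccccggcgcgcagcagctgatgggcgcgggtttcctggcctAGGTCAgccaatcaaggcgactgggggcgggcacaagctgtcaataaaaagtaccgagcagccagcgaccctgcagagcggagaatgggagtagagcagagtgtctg
Lect2, chr13:56548489-56548788, minus strand: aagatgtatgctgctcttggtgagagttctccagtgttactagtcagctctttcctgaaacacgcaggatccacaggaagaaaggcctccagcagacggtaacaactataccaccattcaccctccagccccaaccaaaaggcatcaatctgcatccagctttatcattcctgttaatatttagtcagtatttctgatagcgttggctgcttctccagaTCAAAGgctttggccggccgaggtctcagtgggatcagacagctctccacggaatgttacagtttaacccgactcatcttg
Sp5, chr2:70474673-70474972, plus strand: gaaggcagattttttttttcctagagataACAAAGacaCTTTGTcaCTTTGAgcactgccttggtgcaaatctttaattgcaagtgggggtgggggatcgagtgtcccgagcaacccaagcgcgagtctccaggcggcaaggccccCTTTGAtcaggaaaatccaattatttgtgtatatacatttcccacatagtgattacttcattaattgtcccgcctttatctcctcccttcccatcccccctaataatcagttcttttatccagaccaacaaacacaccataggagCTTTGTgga
The Glul window held no TCF/LEF core and 1 AGGTCA on the plus strand, first base at -57 from the start site. The Lect2 window held CTTTGA on the opposite strand, printed as TCAAAG, with its first base at -31. The 5 cores of Sp5 began at -221, -212, -204, -104 and 42. The windows of Axin2, Rnf43 and Nkd1 held none of these motifs. A core of either TCF/LEF form is common, being present in 31.2% of 32817 RefSeq promoter windows of this length, and AGGTCA in 16.3%. That repeat was in 13 windows, 0.0396%, and in none of those of the members.

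Glul encodes glutamine synthetase, the ammonia-fixing enzyme of the last pericentral hepatocytes (ENSMUSG00000026473, chromosome 1, 153899944 to 153909723, GRCm38/mm10, plus strand). Its level in the 3 untreated wild-type libraries was 39.7, 38.9 and 40.5 CPM, and with CP775146 48.1, 46.6 and 43.5 CPM. In the knock-in it was 33.8, 33.3 and 36.3 CPM untreated and 79.5, 67.1 and 70.4 CPM with CP775146. No 2 groups overlapped: the untreated knock-in libraries were the lowest of the 12 and the treated knock-in libraries the highest.

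Glul rose 2.1-fold with CP775146 in the knock-in (1.07 ± 0.05 log2, edgeR adjusted p = 1.13e-15) and 1.16-fold in wild type (0.22 ± 0.06, edgeR adjusted p = 0.00291). The difference between these responses was 0.85 ± 0.08 log2 (edgeR adjusted p = 3.34e-08), and it passed the test under all 20 alternative settings. Without treatment Glul was lower in the knock-in by a small margin (-0.20 ± 0.06 log2, edgeR adjusted p = 0.00651), and with treatment it was 1.57-fold higher (0.65 ± 0.05, edgeR adjusted p = 5.69e-11). The 2 smaller effects depended on the scaling: with total counts in place of TMM the untreated difference was -0.101 log2 and the wild-type response of Glul 0.1165 log2, and neither passed. The untreated difference of Glul was also lost without untreated knock-in replicate 2 (-0.1706 log2).

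Lect2 encodes leukocyte cell-derived chemotaxin 2, a protein that hepatocytes secrete into blood and a known beta-catenin target of the liver (ENSMUSG00000021539, chromosome 13, 56542460 to 56548538, minus strand). Untreated wild-type libraries held 23.4, 21.5 and 26.9 CPM, and treated ones 16, 14.9 and 15.7 CPM. Untreated knock-in libraries held 67.8, 68.8 and 63.8 CPM, and treated ones 35.6, 32.5 and 37.2 CPM. The 4 groups did not overlap, and both knock-in groups lay above both wild-type groups.

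The level of Lect2 was 2.79-fold higher in the untreated knock-in than in untreated wild type (1.48 ± 0.06 log2, edgeR adjusted p = 1.25e-16) and 2.26-fold higher with treatment (1.18 ± 0.07, edgeR adjusted p = 8.75e-14). CP775146 lowered it in wild type (-0.62 ± 0.07 log2, edgeR adjusted p = 6.08e-08) and in the knock-in (-0.93 ± 0.06, edgeR adjusted p = 4.16e-13). Glul and Lect2 thus moved in opposite directions with the agonist in each genotype. The difference between the Lect2 responses, -0.30 ± 0.09 log2, was at the threshold (edgeR adjusted p = 0.0477). It missed the threshold in 12 of 20 alternatives, among them RLE scaling (-0.298 log2), total-count scaling (-0.2688), DESeq2 (-0.2986) and 9 of the 12 fits without 1 library, and its adjusted p over the 20 ran from 0.002583 to 0.1286.

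**Figure D1:**
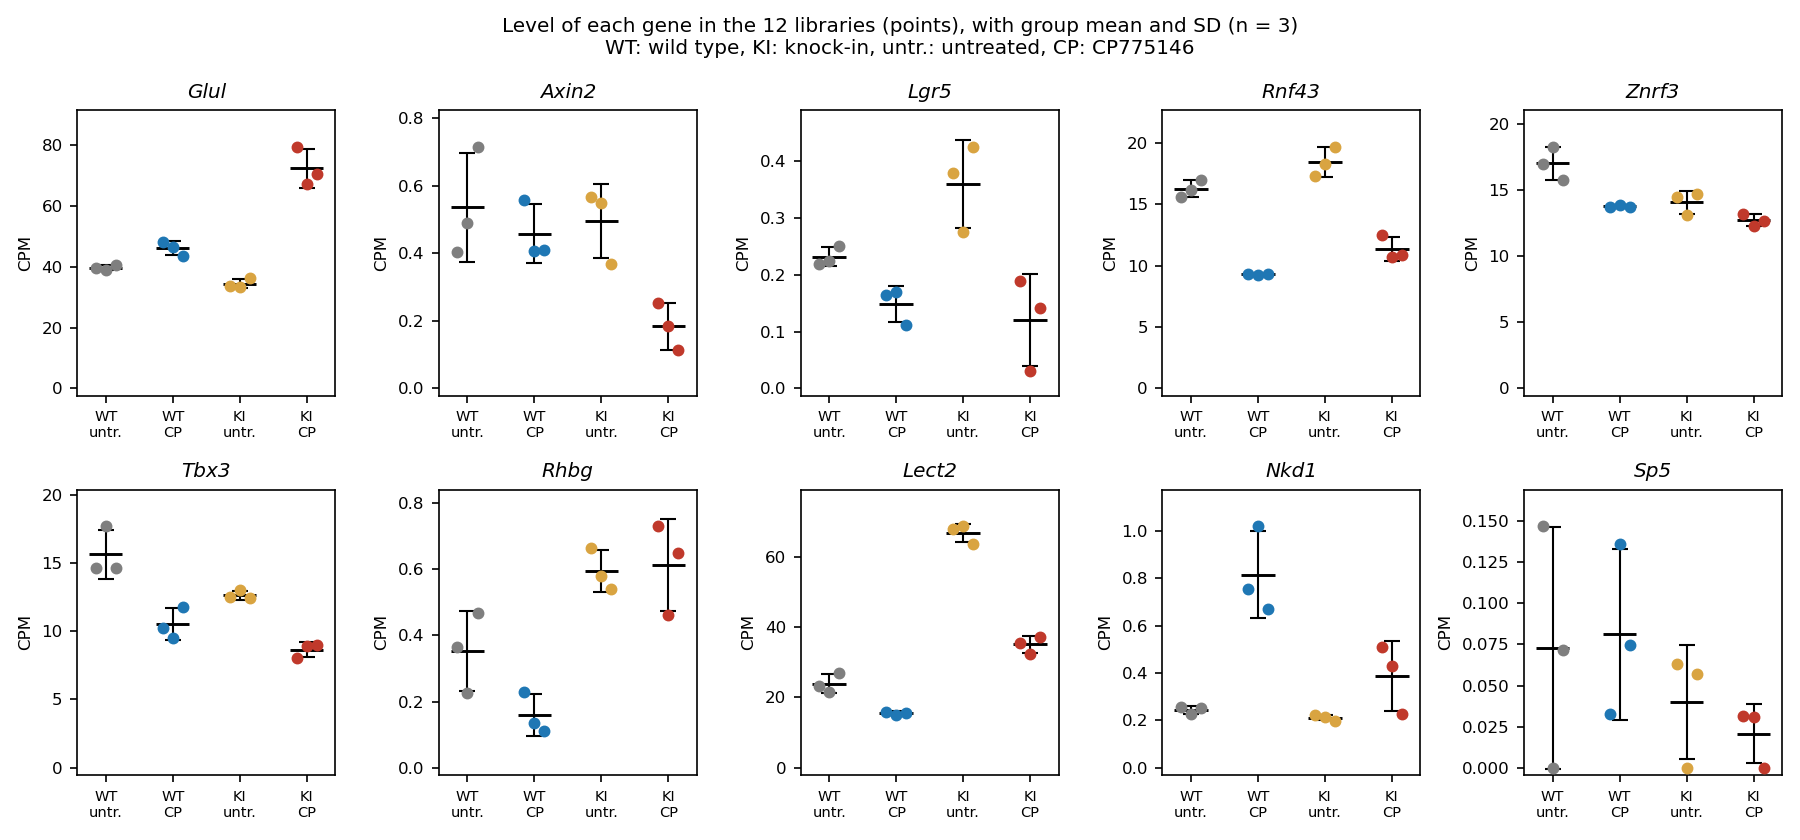
Level of each of the 10 genes in CPM (y axis, a scale of its own per gene) in the 12 libraries (points), with group mean and SD (lines, n = 3), for wild type (WT) and knock-in (KI), untreated and with CP775146 (CP). Glul is highest in the treated knock-in at 67.1 to 79.5 CPM, Lect2 in the untreated knock-in at 63.8 to 68.8 CPM, and Axin2, Lgr5, Rhbg, Nkd1 and Sp5 reach at most 1.02 CPM.

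Rhbg encodes an ammonium transporter of pericentral hepatocytes (ENSMUSG00000104445, chromosome 3, 88242874 to 88254709, minus strand). It was weakly expressed, with 10, 6 and 13 counts in untreated and 7, 4 and 3 in treated wild type, and 21, 19 and 19 counts in the untreated and 23, 15 and 23 in the treated knock-in. All 6 knock-in libraries held more counts than any wild-type library, though in CPM the lowest of them (0.46) was level with the highest wild-type value (0.466). With treatment the knock-in level was 3.73-fold higher, at 0.612 ± 0.138 against 0.159 ± 0.0625 CPM (1.9 ± 0.4 log2, edgeR adjusted p = 2.5e-04). Without treatment the difference did not pass (0.74 ± 0.34, edgeR adjusted p = 0.0936). Of the libraries, 8 held 10 or more counts of Rhbg, among them all 6 of the knock-in. It therefore entered the tested genes through the knock-in groups, where it was high, and its genotype p-values carry that limit. In wild type CP775146 lowered Rhbg by a margin that only just passed (-1.12 ± 0.46 log2, edgeR adjusted p = 0.0481), with overlapping groups, and the call was lost under 14 of 19 alternatives, the smallest change being -0.8631 log2 without untreated wild-type replicate 3. In the knock-in the change of Rhbg was 0.05 ± 0.29 log2 (95% interval -0.53 to 0.62), and the responses did not differ by the test (1.16 ± 0.55 log2, edgeR adjusted p = 0.225). Of the exonic length of Rhbg, 61.4% overlaps Gm38392, which held 0 to 6 counts per library, and reads over both genes are left out by default counting, so its level is uncertain.

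Tbx3 encodes a T-box transcription factor of pericentral hepatocytes (ENSMUSG00000018604, chromosome 5, 119670669 to 119684724, plus strand). In wild type its level was 14.6, 17.7 and 14.6 CPM untreated, and 10.2, 9.53 and 11.8 CPM treated. In the knock-in it was 12.5, 13 and 12.4 CPM untreated and 8, 8.89 and 9.01 CPM treated. The groups did not overlap, with untreated wild type highest and the treated knock-in lowest.

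CP775146 lowered Tbx3 in both genotypes, with a change of -0.58 ± 0.09 log2 in wild type (edgeR adjusted p = 1.92e-06) and -0.54 ± 0.09 in the knock-in (edgeR adjusted p = 7.73e-06), and the difference between the responses had a 95% interval of -0.21 to 0.27 log2. The knock-in level was lower without treatment (-0.31 ± 0.08 log2, edgeR adjusted p = 0.00324) and with it (-0.28 ± 0.09, edgeR adjusted p = 0.0144). The second of these differences was lost with total-count scaling (Tbx3 at -0.1387 log2), without treated wild-type replicate 3 (-0.1841) and without treated knock-in replicate 1 (-0.2239), and the first without untreated wild-type replicate 2 (-0.2063).

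Among the feedback genes, Rnf43 and Znrf3 encode related membrane ubiquitin ligases that clear Frizzled receptors. Rnf43 (ENSMUSG00000034177, chromosome 11, 87662722 to 87735539, plus strand) stood in wild type at 15.6, 16.2 and 17 CPM untreated and at 9.33, 9.26 and 9.3 CPM treated. In the knock-in its level was 17.3, 18.3 and 19.7 CPM untreated and 12.5, 10.7 and 10.9 CPM treated. The treated libraries of each genotype lay below the untreated ones. Rnf43 fell with CP775146, at -0.81 ± 0.08 log2 in wild type (edgeR adjusted p = 4.95e-10) and -0.70 ± 0.07 in the knock-in (edgeR adjusted p = 2.42e-09), and the difference of these responses was 0.11 ± 0.10 (95% interval -0.09 to 0.32). The treated knock-in was above treated wild type (0.29 ± 0.08 log2, edgeR adjusted p = 0.00367). The untreated difference in Rnf43 was 0.18 ± 0.07 log2 (edgeR adjusted p = 0.0438). It was lost in 8 of the alternatives, with values from 0.1323 log2 without untreated knock-in replicate 3 to 0.1894 without untreated knock-in replicate 2.

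Znrf3 (ENSMUSG00000041961, chromosome 11, 5276324 to 5444847, minus strand) was at 17, 18.3 and 15.8 CPM in untreated wild type and 13.7, 13.9 and 13.7 CPM with treatment. In the knock-in it was at 14.5, 13.1 and 14.7 CPM untreated and 13.2, 12.3 and 12.7 CPM treated. Untreated wild type was the high group, and the others lay within 12.3 to 14.7 CPM. Znrf3 was lower in the untreated knock-in than in untreated wild type (-0.27 ± 0.07 log2, edgeR adjusted p = 0.00228) and fell with CP775146 in wild type (-0.31 ± 0.07, edgeR adjusted p = 5.45e-04). In the knock-in its response of -0.15 ± 0.07 did not pass (edgeR adjusted p = 0.0855, 95% interval -0.29 to -0.02), although it did with total-count scaling (-0.2161 log2) and without untreated knock-in replicate 2 (-0.2044 log2). The responses did not differ by the test (0.16 ± 0.10 log2, edgeR adjusted p = 0.392), nor did the treated groups (-0.11 ± 0.07, edgeR adjusted p = 0.22).

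Axin2, whose protein is a scaffold of the destruction complex and a widely used readout of Wnt signalling (ENSMUSG00000000142, chromosome 11, 108920349 to 108950783, plus strand), was near the limit of detection. It held 11, 13 and 20 counts in untreated and 17, 12 and 11 in treated wild type, and 18, 18 and 13 counts in the untreated and 8, 6 and 4 in the treated knock-in. The treated knock-in was below every other group, and the other 3 overlapped. Only 9 libraries held 10 or more counts of Axin2, none of them from the treated knock-in. It therefore entered the tested genes through the other groups, where it was higher, and its p-values that involve the treated knock-in carry that limit. Axin2 fell with CP775146 in the knock-in, from 0.496 ± 0.11 to 0.184 ± 0.0707 CPM (-1.42 ± 0.40 log2, edgeR adjusted p = 0.00506), while the wild-type change was -0.22 ± 0.34 (edgeR adjusted p = 0.638). The 2 responses did not differ by the test (-1.21 ± 0.53 log2, edgeR adjusted p = 0.19). Under treatment Axin2 was lower in the knock-in (-1.33 ± 0.41 log2, edgeR adjusted p = 0.00986), a call lost without treated wild-type replicate 1 (-1.1478) and without treated knock-in replicate 3 (-1.0616).

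Nkd1, an inhibitor that binds Dishevelled (ENSMUSG00000031661, chromosome 8, 88521344 to 88594887, plus strand), was also scarce. It held 7, 6 and 7 counts in untreated and 23, 30 and 18 in treated wild type, and 7, 7 and 7 counts in the untreated and 16, 14 and 8 in the treated knock-in. The treated libraries of each genotype lay above its untreated ones. Nkd1 rose 3.31-fold in wild type, from 0.244 ± 0.0165 to 0.815 ± 0.183 CPM (1.73 ± 0.36 log2, edgeR adjusted p = 2.15e-04), and its knock-in change of 0.85 ± 0.40 did not pass (edgeR adjusted p = 0.0969), except without treated knock-in replicate 3 (1.1344 log2). The test of the difference gave -0.88 ± 0.56 log2 (edgeR adjusted p = 0.405). With treatment Nkd1 was lower in the knock-in (-1.09 ± 0.31 log2, edgeR adjusted p = 0.00552), but not without treated wild-type replicate 2 (-0.8872) or treated knock-in replicate 3 (-0.7985). Only 5 libraries held 10 or more counts of Nkd1, all of them treated, so it entered the tested genes through the groups where it was high. The p-values of Nkd1 for CP775146 and between the treated genotypes carry that limit.

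Lgr5, the R-spondin receptor that marks Wnt-responsive stem cells and the last pericentral hepatocytes (ENSMUSG00000020140, chromosome 10, 115450311 to 115587780, minus strand), held 80 counts over all libraries. These were 6, 6 and 7 in untreated and 5, 5 and 3 in treated wild type, and 12, 9 and 15 in the untreated and 6, 1 and 5 in the treated knock-in. The untreated knock-in was the highest group and overlapped no other. Lgr5 was also put through an edgeR fit with no filter on low counts, adjusted over the 27924 genes with at least 1 count. There the lower level with CP775146 in the knock-in had an adjusted p of 0.0157 (-1.56 ± 0.52 log2). The other comparisons had adjusted p-values from 0.436 to 0.847. At these counts the change of Lgr5 is not taken as a call. Sp5, a zinc finger factor gene and direct Wnt target (ENSMUSG00000075304, chromosome 2, 70474923 to 70477729, plus strand), held 0 to 4 counts per library and 19 in all, so no change was detectable at this depth.

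On a scale that corrects for exonic length, which allows genes to be compared, Lect2 (27.3 ± 3.13 CPM per kb) and Glul (11.9 ± 0.237) led in untreated wild type. Rnf43 (2.48 ± 0.11), Tbx3 (2.36 ± 0.274) and Znrf3 (2.16 ± 0.159 CPM per kb) followed. Tbx3 overlapped both of the others, while every Rnf43 library lay above every Znrf3 library. Rhbg (0.182 ± 0.0623 CPM per kb), Axin2 (0.0973 ± 0.0294), Nkd1 (0.0548 ± 0.00369), Sp5 (0.0346 ± 0.0349) and Lgr5 (0.0226 ± 0.0016) came last, where Rhbg overlapped Axin2 and Sp5 overlapped its neighbours. In the untreated knock-in the level of Lect2 was 76.2 ± 3.03 and that of Glul 10.4 ± 0.488 CPM per kb, and in the treated knock-in 40 ± 2.7 and 21.8 ± 1.93. In every group Axin2, Lgr5, Nkd1, Rhbg and Sp5 were below the other 5 genes.

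**Figure D2:**
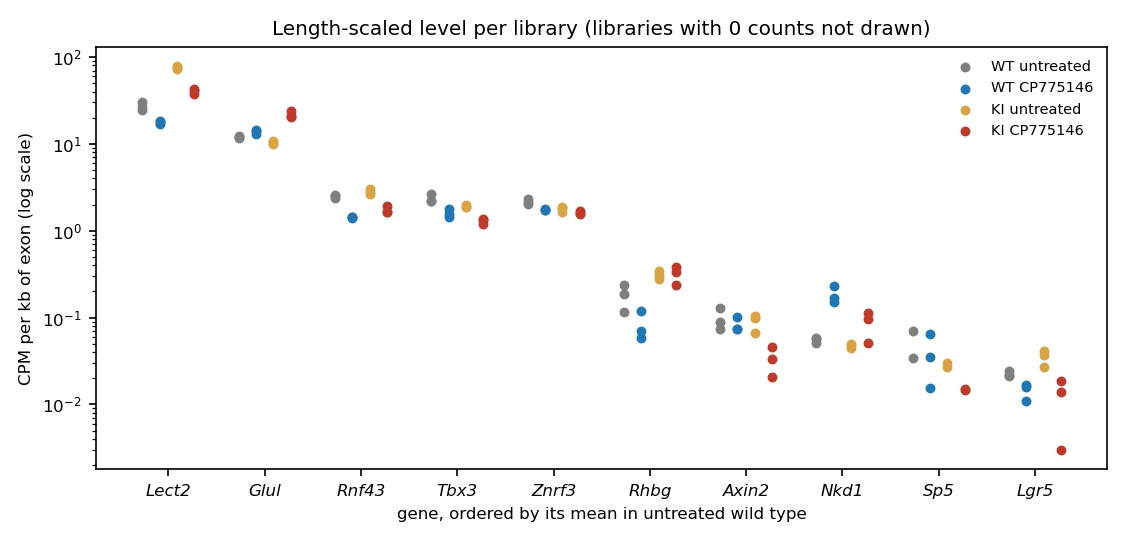
CPM per kb of exon (y axis, log scale) of each gene in every library, by group (colours), with genes ordered by their mean in untreated wild type and libraries with 0 counts left out. Lect2 and Glul are the highest in every group, with untreated wild-type means of 27.3 and 11.9 CPM per kb, and the 5 genes on the right lie under the other 5.

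Taking the 8 tested members by comparison, 2 were higher and 3 lower in the untreated knock-in (median -0.16 log2). Of all tested genes, 18.4% were higher and 18.6% lower there, 37% in all, with a median of 0.00 log2. With CP775146, 2 members rose and 5 fell in wild type (median -0.44 log2), against 22.7% and 22.3% of all genes, 45% in all. In the knock-in 1 rose and 4 fell (median -0.35 log2), against 18.1% and 19.1%, 37.2% in all. Between the treated genotypes 4 were higher and 3 lower in the knock-in (median 0.09 log2), against 20.5% and 22%, 42.5% in all. The response to the agonist differed between genotypes for 2 members, Glul higher and Lect2 lower, against 2.78% and 4.33% of all genes, 7.11% in all. The Lect2 call was lost in 12 of 20 alternatives. Total-count scaling gave 3 higher and 2 lower members in the untreated knock-in, 1 and 5 for CP775146 in wild type, 1 and 5 in the knock-in, and 4 and 2 between the treated genotypes. That scaling moved the median of all genes to 0.0975, -0.1038, -0.0736 and 0.1239 log2 in these comparisons, and the share of higher genes among those called from 49.7% to 74.5%, 50.4% to 30.6%, 48.7% to 32.2% and 48.3% to 76.1%. The pairs of comparisons share groups of libraries, so they are not independent. The numbers of called members include calls of Axin2, Rhbg and Nkd1, which held at most 30 counts per library. These genes entered the tested genes through the groups where they were higher, so their calls carry that limit. The members were chosen with earlier results of these data known, so their counts beside the shares of all genes are a description.

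**Figure D3:**
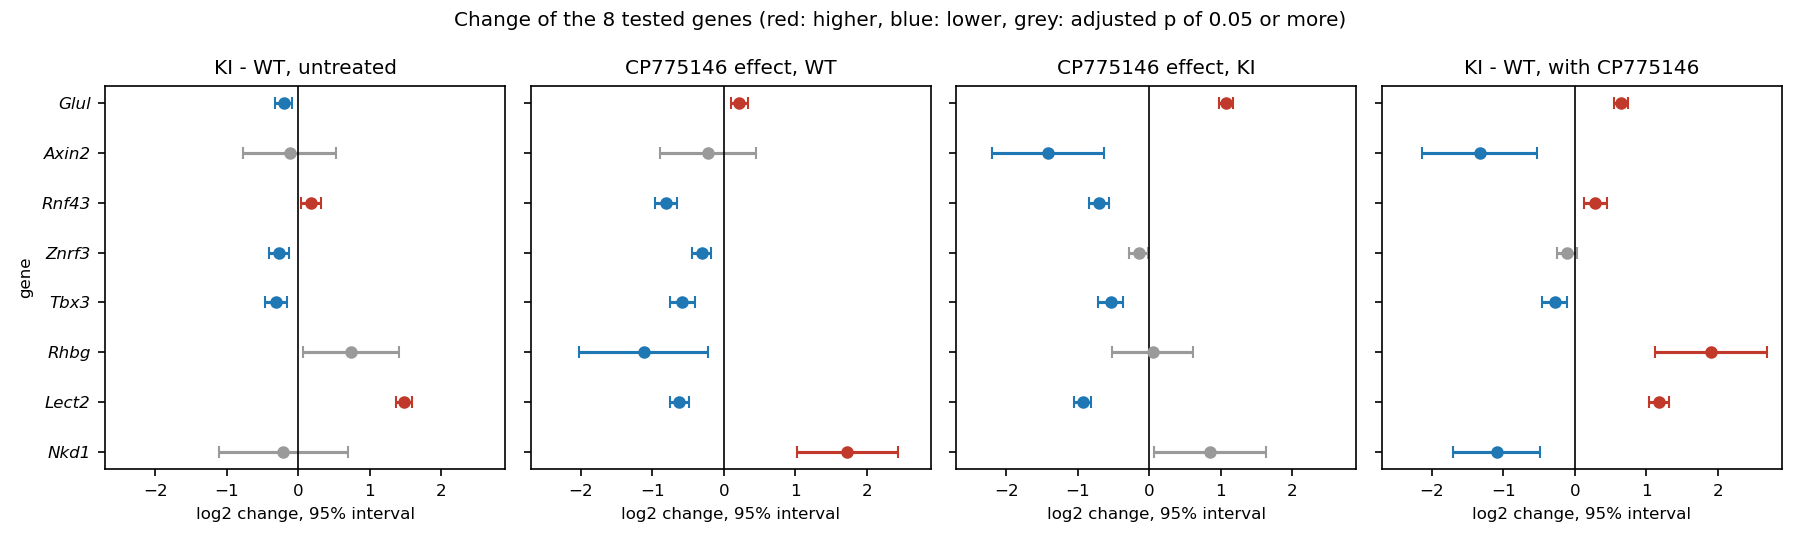
Log2 change (x axis, point) with its 95% interval (bar) of the 8 tested genes in the 4 comparisons of 2 groups, coloured by direction where the edgeR adjusted p is below 0.05. Glul and Nkd1 are the genes right of 0 for CP775146 in wild type, and Lect2 is at 1.48 log2 between the untreated genotypes and -0.93 log2 for CP775146 in the knock-in.

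**Figure D4:**
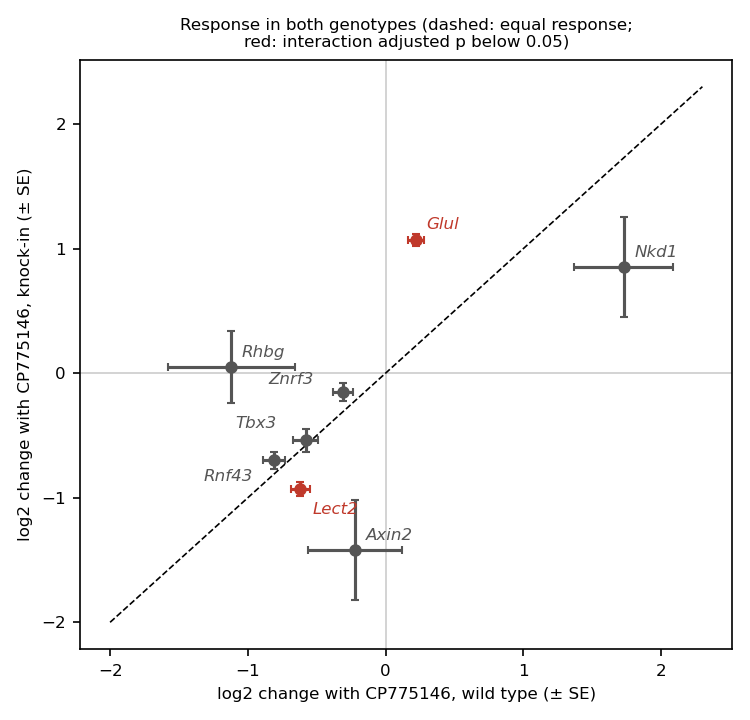
Log2 change with CP775146 in wild type (x axis) against that in the knock-in (y axis), each with its SE, for the 8 tested genes, with a dashed line where both are equal. Glul lies above the line at 0.22 and 1.07 log2, Lect2 below it at -0.62 and -0.93 log2, and Rnf43, Tbx3 and Znrf3 lie near it.

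Over the 12 libraries the members did not follow 1 shared pattern. The Pearson correlation of log2 CPM was 0.86 between Znrf3 and Tbx3 and 0.84 between Rhbg and Lect2, and -0.81 between Glul and Tbx3, -0.8 between Glul and Axin2 and -0.85 between Rnf43 and Nkd1. Between Glul and Lect2 it was -0.21. Axin2, Rhbg and Nkd1 held at most 30 counts per library, so values that include them are uncertain. The libraries fall in 4 groups that set most of these correlations, which are given as a description. By the same measure, the genes most like Glul were Alas1, the first enzyme of haem synthesis (r = 0.962), Pck2, the mitochondrial PEP carboxykinase (0.957), and Fasn, fatty acid synthase (0.955). Alas1 had 252 ± 5.37 CPM without and 332 ± 14.5 CPM with CP775146 in wild type, and 245 ± 8.33 and 440 ± 30.2 CPM in knock-in cells. The gene most like Lect2 was Sult1a1, a phenol sulfotransferase gene (r = 0.999), with CPM of 331 ± 20.6 and 240 ± 9.31 in wild type and 775 ± 22.7 and 463 ± 14.4 in the knock-in, followed by Zfp512 and Tmem176a (both 0.987). Most like Rnf43 were Igfbp4, an IGF-binding protein gene (0.99), Trib1 and Gars (both 0.984). Most like Tbx3 were Ip6k1, Foxa3, a liver forkhead factor gene, and Entpd2 (all 0.98), and most like Znrf3 were Slc25a44 (0.978), Mprip (0.973) and Tgfbrap1 (0.966).

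Of the pathway upstream, 19 Wnt ligand genes were looked up and 5 were tested. The ligands and the R-spondin known from central vein endothelium were scarce, with 17 counts of Wnt2, 9 of Wnt9b and 52 of Rspo3 over all 12 libraries. Wnt4 held 116 counts over the 3 untreated and 10 over the 3 treated wild-type libraries, and 42 and 6 in knock-in cells. These are 1.42 ± 0.119 and 0.114 ± 0.0344 CPM in wild type, and 0.421 ± 0.0744 and 0.0628 ± 0.0635 CPM in knock-in cells. Wnt4 was lower in the untreated knock-in (-1.74 ± 0.29 log2, edgeR adjusted p = 1.59e-05). It entered the tested genes through the untreated groups, where it was high, and its treated values lie near the level of 3 counts, so the responses of Wnt4 to CP775146 are given as levels only. Wnt9a, the most abundant of the 5, rose in wild type from 5.47 ± 0.552 to 6.9 ± 0.529 CPM (0.34 ± 0.11 log2, edgeR adjusted p = 0.0163), a call lost with total-count scaling (0.24 log2).

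Of 16 tested R-spondin, Wnt secretion and receptor genes, 4 were higher and 4 lower in the untreated knock-in, or 5 and 1 with total-count scaling. CP775146 raised 7 and lowered 5 in wild type (5 and 6 with total-count scaling), and raised 4 and lowered 6 in the knock-in. Of all tested genes, 18.4% were higher and 18.6% lower in the untreated knock-in. The agonist raised 22.7% and lowered 22.3% of them in wild type, and raised 18.1% and lowered 19.1% in the knock-in. Porcn, the acyltransferase gene without which Wnt proteins are not secreted, was lower in the untreated knock-in, at 7.87 ± 0.302 against 15.5 ± 0.981 CPM (-0.97 ± 0.09 log2, edgeR adjusted p = 4.47e-10), and fell with CP775146, to 11.1 ± 1.46 CPM in wild-type and 4.83 ± 0.582 CPM in knock-in cells. Fzd5, a Frizzled receptor gene, fell in both genotypes (-0.51 ± 0.05 log2 in wild type and -0.44 ± 0.05 in the knock-in). Fzd7 rose in both (0.77 ± 0.07 and 0.43 ± 0.07 log2), and its response was smaller in the knock-in (-0.34 ± 0.10, edgeR adjusted p = 0.0263). Lgr4, the R-spondin receptor that hepatocytes express, was at 48 ± 2.26 CPM in untreated wild type and 57.7 ± 0.89 CPM in the untreated knock-in (0.27 ± 0.04 log2, edgeR adjusted p = 1.69e-05).

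Of 22 tested genes of beta-catenin, its destruction complex and its transcription factors, 3 were higher and 4 lower in the untreated knock-in, and CP775146 raised 5 and lowered 9 in each genotype. With total-count scaling these counts were 6 and 3, 2 and 14 in wild type, and 3 and 12 in the knock-in. Between the treated genotypes 4 were higher and 4 lower, or 14 and 3 with total-count scaling, so the split depends on the scaling. The share of all tested genes called in either direction was 37% between the untreated and 42.5% between the treated genotypes. With CP775146 it was 45% in wild type and 37.2% in the knock-in. Ctnnb1, the beta-catenin gene, had 449 ± 3.7 CPM without and 449 ± 3.75 CPM with CP775146 in wild type, and 499 ± 6.85 and 457 ± 2.99 CPM in knock-in cells. Its untreated difference was 0.15 ± 0.03 log2 (edgeR adjusted p = 4.46e-04). Bcl9, a coactivator that links beta-catenin to Pygopus, was lower in the untreated knock-in (-0.56 ± 0.07 log2) and rose with CP775146 from 20.5 ± 2.39 to 35.4 ± 0.427 CPM in wild type and from 13.9 ± 0.79 to 18.5 ± 0.796 CPM in the knock-in, where the response was smaller (-0.37 ± 0.10 log2, edgeR adjusted p = 0.0136). Of 7 tested inhibitor genes, 1 was higher and 1 lower in the untreated knock-in (3 and 0 with total-count scaling), 1 rose and 2 fell in wild type (1 and 3 with RLE, 1 and 4 with total-count scaling), and 1 rose and 3 fell in the knock-in (0 and 4 with total-count scaling). Tle3, a Groucho corepressor gene, fell from 33.8 ± 2.52 to 15.8 ± 1.32 CPM in wild type and from 34.4 ± 1.2 to 21.9 ± 2.07 CPM in the knock-in (difference 0.44 ± 0.10 log2, edgeR adjusted p = 0.00461).

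Other Wnt targets are known mainly from dividing or stem cells. Of 8 tested, 5 were higher and 1 lower in the untreated knock-in (median 0.69 log2), and 5 were higher and 1 lower between the treated genotypes (median 0.63 log2), or 7 and 0 with total-count scaling. The shares of all tested genes were 18.4% higher and 18.6% lower without treatment, and 20.5% and 22% with it. Ccnd1, the cyclin D1 gene, had 13.1 ± 1.29 CPM without and 6.67 ± 0.328 CPM with CP775146 in wild type, and 37.5 ± 1.21 and 25.6 ± 0.808 CPM in knock-in cells (1.51 ± 0.06 log2 between the untreated groups, edgeR adjusted p = 9.84e-18). The adhesion receptor gene Cd44 (1.21 ± 0.11 log2) and the AP-1 gene Fosl1 (1.13 ± 0.10) were higher in the untreated knock-in too, whereas Jun was lower (-0.20 ± 0.04). CP775146 raised 2 and lowered 3 of these genes in wild type (1 and 5 with total-count, 2 and 4 with RLE scaling), and raised 2 and lowered 2 in the knock-in (2 and 4 with total-count scaling). For all tested genes the shares were 22.7% and 22.3% in wild type, and 18.1% and 19.1% in the knock-in. Sox9, a duct and progenitor factor gene that is also on the cholangiocyte marker list, rose from 6.11 ± 0.393 to 16.2 ± 0.708 CPM in wild type and from 9.17 ± 0.494 to 18.1 ± 0.875 CPM in the knock-in. These genes also answer to other pathways.

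Other pericentral genes went both ways in the untreated knock-in, with 12 higher and 11 lower of 26 tested (median 0.03 log2). The shares of all tested genes were 18.4% and 18.6%. Cyp2e1, an alcohol-oxidizing cytochrome P450, was 3.37-fold lower (-1.75 ± 0.04 log2, edgeR adjusted p = 1.09e-23), and Lhpp (-1.30 ± 0.06), Slc1a2, a glutamate transporter gene (4.13 ± 0.189 against 2.04 ± 0.125 CPM), and Oat, the ornithine aminotransferase gene (94.9 ± 2.57 against 59.7 ± 2.49 CPM), were lower as well. In contrast, Cldn2, a tight junction claudin gene, was 3.44-fold higher (1.78 ± 0.05 log2, edgeR adjusted p = 5.38e-21) and Aldh1a1, a retinaldehyde dehydrogenase gene, 2.67-fold higher. CP775146 raised 11 and lowered 10 of the 26 in wild type, and raised 12 and lowered 8 in the knock-in, or 7 and 8 with total-count scaling. For all tested genes the shares were 22.7% and 22.3% in wild type, and 18.1% and 19.1% in the knock-in. Ahr, the dioxin receptor gene, fell from 144 ± 1.26 to 75.9 ± 2.35 CPM in wild type and from 162 ± 2.55 to 86.3 ± 2.27 CPM in the knock-in. Nr1i3, which encodes the receptor CAR, rose from 2.63 ± 0.303 to 8.73 ± 0.194 CPM and from 3.47 ± 0.429 to 10.4 ± 0.542 CPM, but shares 74.9% of its exonic length with Tomm40l. Avpr1a, a vasopressin receptor gene, rose by 0.51 log2 in wild type and 1.01 log2 in the knock-in (difference 0.50 ± 0.10, edgeR adjusted p = 0.00223).

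Of 21 tested periportal genes, 3 were higher and 12 lower in the untreated knock-in (median -0.29 log2), or 6 and 10 with total-count scaling, and 2 were higher and 11 lower between the treated genotypes (median -0.34 log2), or 4 and 9. The shares of all tested genes were 18.4% higher and 18.6% lower without treatment, and 20.5% and 22% with it. Hsd17b6 (-1.34 ± 0.09 log2), G6pc, the glucose-6-phosphatase gene (-1.11 ± 0.11), and Hsd17b13, a lipid droplet dehydrogenase gene (-0.78 ± 0.04), were lower in the untreated knock-in. CP775146 raised 10 and lowered 8 in wild type and raised 7 and lowered 9 in the knock-in. For all tested genes the shares were 22.7% and 22.3% in wild type, and 18.1% and 19.1% in the knock-in. The urea cycle gene Cps1 fell from 1970 ± 145 to 542 ± 20.7 CPM in wild-type cells and from 1870 ± 15.6 to 790 ± 26.7 CPM in knock-in cells. Fbp1 and G6pc, genes of gluconeogenesis, rose in both genotypes (1.53 ± 0.04 and 2.06 ± 0.08 log2 in wild type). Thus neither zone moved as a block with the agonist, since members of both lists rose and fell.

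**Figure D5:**
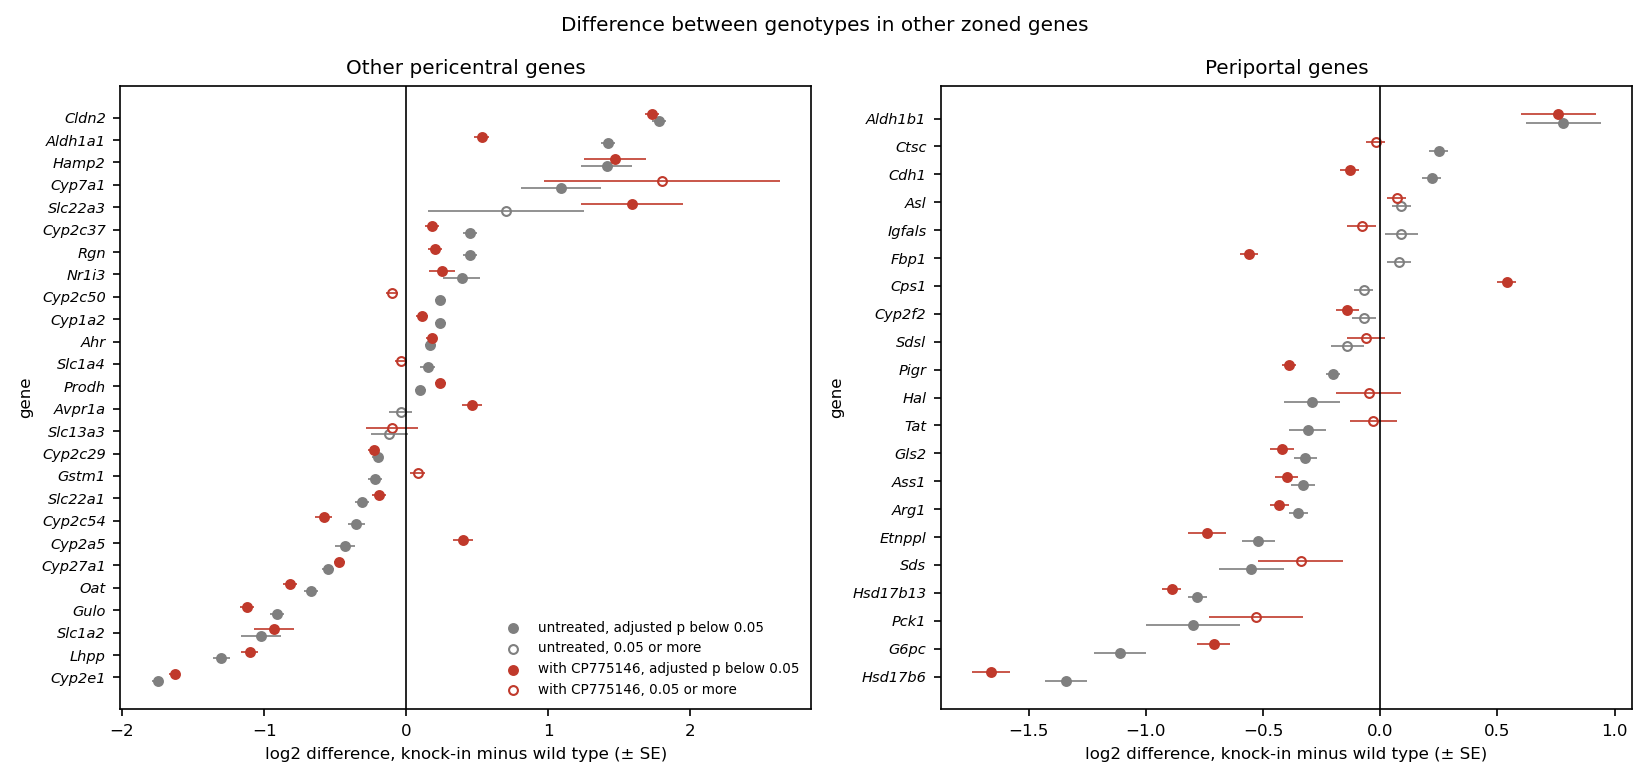
Log2 difference between knock-in and wild type (x axis, with SE) of 26 other pericentral and 21 periportal genes, untreated (grey) and with CP775146 (red), filled where the edgeR adjusted p is below 0.05. Pericentral genes lie on both sides of 0, from Cyp2e1 at -1.75 to Cldn2 at 1.78 log2 untreated. In the untreated knock-in 12 of the 21 periportal genes are lower, against 18.6% of all tested genes.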

How the data were processed

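Per the labels' protocols, total RNA of primary mouse hepatocytes was made into TruSeq libraries, 3 for each of 4 groups. The deposited values are raw read counts per gene. Per the file headers, the authors counted exonic reads of each gene with featureCounts 1.6.2, using Ensembl annotation of mm10 and no option for strand or multi-mapping. The submitters' processing notes name featureCounts 1.4.6-p4 instead, with FastQC 0.11.2, cutadapt 1.9 and edgeR 3.18.1. Of 46983 gene IDs, 46488 had a symbol. Reads from a gene and an overlapping or antisense partner cannot be told apart without strand.

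The counts, 26956032 to 34885451 per library, passed through filterByExpr with a minimum count of 10 and a minimum total of 15. TMM scaling and the fit used edgeR 4.0.16 under R 4.3.3 (quasi-likelihood, robust, 1 term per group over 12 libraries). The alternatives tried were total-count or RLE scaling, limma 3.58.1 voom with sample weights, DESeq2 1.42.0, other filters, the replicate number as a block, and leaving out each library. The 10 members and the other lists were chosen with earlier results of these data known. Besides the members, the genes to name were, per list and comparison, at most 4 called genes taken by adjusted p, or the 2 most abundant where none was called, and the 3 genes most correlated with each member of at least 1 CPM. Oat, Slc1a2, Wnt2, Wnt9b, Rspo3 and some second values of named genes were added after their values were seen. Each library was taken as 1 sample. Replicates of a group differed by more than sampling noise, which does not show that they come from different animals or cultures.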

Additional observations from a re-analysis of the deposited data

Results flagged for a closer look

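The test of the difference between responses (edgeR interaction term, adjusted over all genes) is positive where the knock-in response was the more positive. Of all tested genes, 7.11% passed it. The genes to name were taken partly by this same test, so how many of them passed is not a result. For 15 of the named genes the response to CP775146 differed between the genotypes by this test. Of the members these were Glul (0.85 ± 0.08 log2, edgeR adjusted p = 3.34e-08) and Lect2 (-0.30 ± 0.09, edgeR adjusted p = 0.0477), the second lost in 12 of 20 alternatives. Among pathway genes, the difference was -0.37 ± 0.10 log2 for Bcl9, -0.34 ± 0.10 for Fzd7 and 0.44 ± 0.10 for Tle3, and among other Wnt targets it was 0.43 ± 0.10 for Ccnd1, which fell less in the knock-in, and -0.43 ± 0.11 for Sox9, which rose less there. Of other pericentral genes, Aldh1a1 rose less in the knock-in (-0.88 ± 0.06 log2), as did Cyp2c50 (-0.34 ± 0.06), while Avpr1a rose more (0.50 ± 0.10) and Cyp2a5 fell less (0.83 ± 0.09). Of periportal genes, Fbp1 rose less in the knock-in (-0.64 ± 0.06 log2), as did Ctsc (-0.27 ± 0.06), Cdh1 rose in wild type at 0.41 log2 and was at 0.06 in the knock-in (-0.35 ± 0.06), and Cps1 fell less (0.62 ± 0.06). At most 4 genes per list are named here, those with the smallest adjusted p. In all, 3 of 26 other pericentral genes had a more positive response in the knock-in and 4 a more negative one. Of 21 periportal genes the numbers were 1 and 4, and the shares of all tested genes 2.78% and 4.33%. Cyp2a5 and Cyp2c50 have close paralogs that can share reads.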

How the results depend on the processing

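Of 40 results for the 8 tested members, 23 kept direction and side of the threshold under every alternative. Over 798 member values under alternatives, 737 did so, 45 lost the threshold, 4 gained it and 12 changed sign, none of them for a called change. Without single libraries, Axin2 between the untreated genotypes ran from -0.2871 to 0.1447 log2 and with CP775146 in wild type from -0.4 to 0.049, and the first was 0.0129 with voom. Rhbg with CP775146 in the knock-in ran from -0.0909 to 0.2105 and was -0.0168 with total counts, and Znrf3 between the treated genotypes was 0.0258 with total counts. Tbx3 for the difference of responses ran from -0.0688 to 0.1309 and was -0.0098 with voom. Members higher in the untreated knock-in numbered 1 with DESeq2 and 1 to 2 without single libraries. Members raised in wild type numbered 1 with total counts and with at least 5 CPM in 3 libraries, and members lower in the treated knock-in 1 with the latter, which tests fewer genes. Leaving out single libraries gave 1 to 2 members raised in the knock-in, 1 to 3 lower in the treated knock-in, 0 to 1 with a lower response there, and 732 to 1468 genes with differing responses. The count of members with a lower response was 0 with RLE, total counts and DESeq2. The shared replicate numbers did not pair the libraries (18 correlations of -0.026 to 0.063, with 5 of 12 libraries closest to their own number), and the replicate block moved members higher in the untreated knock-in to 1. Depth limits Axin2, Rhbg, Nkd1, Lgr5 and Sp5, with at most 30 counts per library. Where not stated, the cause of a change was not tested.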
